A study of Homo sapiens with 36 samples.

Results

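The Hedgehog pathway genes were the ligand genes SHH, IHH and DHH, the receptor-level genes PTCH1, SMO and HHIP, and the transcription factor genes GLI1, GLI2 and GLI3. They were chosen by name as the core of the pathway, with earlier results of these data known. They are 9 of the 20163 protein-coding genes in the hg19 annotation, and all 9 were found there. A gene was counted as occupied when a region overlapped its interval, which ran from 2.5 kb upstream of the gene start to the gene end, by at least 1 bp. The study profiled chromatin in DU145, an established human prostate cancer line derived from a brain metastasis. Cells carried either a control short hairpin RNA (shCTR) or the hairpin shPHF19L#4, which knocks down the long isoform of PHF19. ChIP-seq was run with antibodies to PHF19, EZH2, SUZ12, MTF2 and the histone mark H3K27me3, with 2 replicates for each antibody and each kind of cell. Of the 36 samples, 28 were ChIP-seq or its controls and 8 were RNA-seq, and the RNA-seq was not analysed here. Peak lists covered PHF19, EZH2 and SUZ12 in shCTR cells and H3K27me3 and MTF2 in both kinds of cells, 14 lists in all. A further 5 tables, made by the authors with DiffBind, gave mean log2 concentrations of normalized reads in regions that passed their threshold.

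Hedgehog ligands are secreted proteins that bind the membrane protein PTCH1 and so release its partner SMO from inhibition, which lets GLI factors act on target genes. HHIP binds and sequesters the ligands, and PTCH1, HHIP and GLI1 are themselves classical targets of the pathway. In the prostate, epithelial Hedgehog ligand signals to the surrounding stroma during development. EZH2 is the enzyme of Polycomb repressive complex 2 that places methyl groups on lysine 27 of histone H3, SUZ12 is a core subunit of that complex, and PHF19 and MTF2 are alternative accessory subunits that help to bring it to chromatin.

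The lists differed widely in length. PHF19 had 1072 peaks in replicate 1 and 14218 in replicate 2, EZH2 had 2060 and 1236, and SUZ12 had 1523 and 232. H3K27me3 had 39254 and 15994 peaks in shCTR cells and 35128 and 57026 in shPHF19L#4 cells, while MTF2 had 2516 and 32254 in shCTR cells and 4216 and 34623 in shPHF19L#4 cells. Because of this, each count of Hedgehog genes stands beside the share of all protein-coding genes that met the same rule. As a description of the line, H3K27me3 in both shCTR replicates was counted over marker genes, which are too few to check the cell type. The count was 0 of 5 epithelial genes, 1 of 4 prostate luminal genes (TMPRSS2) and 1 of 2 leukocyte genes (CD3E). For neural genes it was 1 of 2 (NEUROD1), and for endothelial genes 0 of 1. PECAM1, also planned as an endothelial gene, had no protein-coding record in the annotation. Of the epithelial genes, EPCAM and CDH1 had an H3K27me3 peak in replicate 2 alone, in both kinds of cells. KLK3, a prostate luminal gene, had one in shCTR replicate 1 and in both shPHF19L#4 replicates. H3K27me3 in both shCTR replicates was found for 13.2% of all genes. Occupancy does not measure expression, and in bulk chromatin fewer cells with a mark and less mark in each cell cannot be told apart. No PHF19 value of the knock-down cells was used here, so the depth of the knock-down was not checked.

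All 3 ligand genes and GLI3 were occupied by PHF19 and by EZH2 in both replicates of shCTR cells, and no receptor-level gene was. A PHF19 region with a peak from each replicate lay in 4 of the 9 intervals, against 3.35% of all genes, and an EZH2 region lay in the same 4, against 2.22%. MTF2 gave these 4 genes again, in shCTR cells against 5% of all genes and in shPHF19L#4 cells against 9.81%. H3K27me3 covered 5 of the 9, the same genes and GLI1, in shCTR cells against 13.2% of all genes and in shPHF19L#4 cells against 18.7%. SUZ12 had no region shared by both replicates in any of the 9 intervals, with 0.253% of all genes reaching that rule. By role, the shared regions held 3 of 3 ligands for PHF19, EZH2, H3K27me3 and MTF2, 0 of 3 receptor-level genes for every antibody, and 1 of 3 GLI factors, or 2 of 3 for H3K27me3. With a MACS score of at least 100 required, the EZH2 count was 2, SHH and IHH, and the share of all genes was not computed. In replicate 1 the EZH2 peaks of DHH (68.7) and of the GLI3 start (93.7) scored below that minimum. These counts carry no test, because the genes were picked by name with earlier results of these data known, and are few.

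Single replicates gave between 0 and 9 of the genes. For PHF19 the count was 4 in replicate 1 (3.78% of all genes) and 7 in replicate 2 (23.4%), which added PTCH1, GLI1 and GLI2. For EZH2 it was 4 in replicate 1 (3.27%) and 4 in replicate 2 (5.04%). For SUZ12 it was 0 in replicate 1 (1.1%) and 2 in replicate 2 (0.972%), namely SHH and IHH. The SUZ12 list of replicate 1 was the longer of the pair, with 1523 peaks against 232. For H3K27me3 it was 5 and 5 in the shCTR replicates (19.6% and 14.8%) and 5 and 8 in the shPHF19L#4 replicates (19.2% and 29%). For MTF2 it was 4 in replicate 1 and 9 in replicate 2 both in shCTR cells (5.86% and 49.5%) and in shPHF19L#4 cells (10.5% and 51%). The count of 9 in the MTF2 lists of replicate 2 is read against these high shares of all genes. GLI2 was the gene without an H3K27me3 peak in any of the 4 lists.

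**Figure D1:**
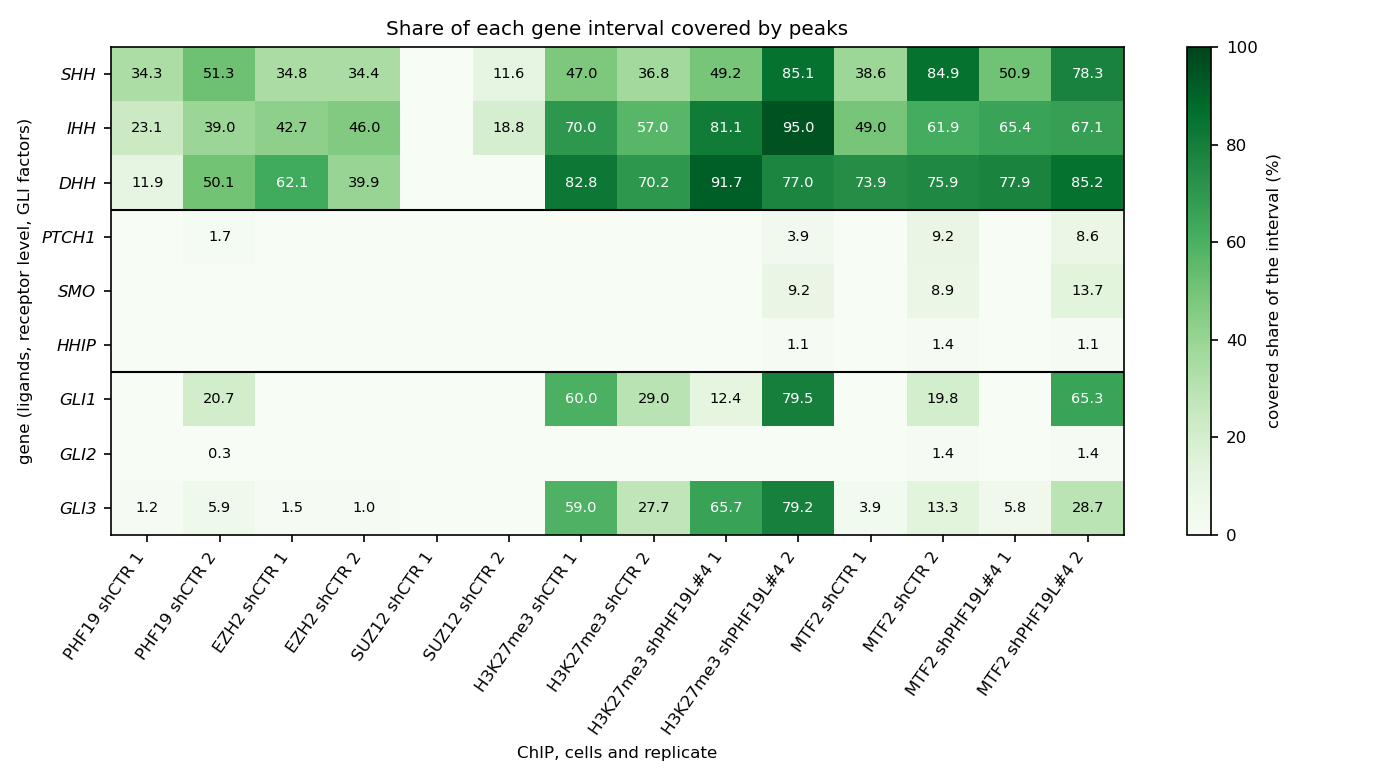
Share of each gene interval covered by peaks (%, colour and number) for the 9 Hedgehog genes, in rows by role, in each of the 14 peak lists, in columns by antibody, cells and replicate; blank fields had no peak. The ligand rows are filled in every column outside SUZ12, where replicate 2 has values for SHH and IHH alone, the receptor-level rows only in replicate 2 columns, and GLI3 has broad H3K27me3 but narrow PHF19 and EZH2 coverage.

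SHH, the ligand known from limb and neural tube patterning, lies on chromosome 7 on the minus strand (chr7:155592674-155605157, hg19). Its PHF19 peaks ran from -0.61 to 1.4 kb and from 1.5 to 4.63 kb of the start site in replicate 1, with 93 and 152 tags. In replicate 2 the main peak spanned -0.83 to 4.81 kb with a MACS score of 1934, where a higher score means a smaller p of the peak caller. The EZH2 peaks ran from -0.75 to 4.46 kb (score 226) and from -0.61 to 4.55 kb (score 713). PHF19 and EZH2 therefore covered the same stretch, the start site, exon 1 and part of intron 1. The single SUZ12 peak, in replicate 2, lay inside the gene from 1.4 to 3.13 kb (score 122). H3K27me3 reached farther upstream, from -2.19 to 4.85 kb (score 1300) and from -1.12 to 4.39 kb (score 1629) in the shCTR replicates. In shPHF19L#4 cells the same domain had a score of 819 in replicate 1 and 3100 in replicate 2, a value that 719 of the 57026 peaks of that list shared. The start-site domain was thus called in all 4 H3K27me3 lists. Its score was lower in shPHF19L#4 than in shCTR cells in replicate 1 and higher in replicate 2. Over all peaks the median score went from 110 to 109 in replicate 1 and from 89.7 to 136 in replicate 2. Scores of different lists are therefore not read as a change of the domain.

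The promoters of the 3 ligand genes are printed because a listed PHF19 region overlapped each at least in part. At IHH that region began 0.02 kb inside the gene, so it reached only the downstream end of the promoter. At DHH it was a weaker region (concentration 5.96), with a peak in replicate 2 alone. The promoters also differ in CG content, Polycomb complexes being known to favour CG-rich sequence. They are RefSeq promoters (GRCh38.p14 table, mostly upstream of the start), placed on hg19 by an exact match of the sequence, shown 5′ to 3′ on the minus strand with each CG in capitals. SHH had 7 CG dinucleotides in 300 bases (chr7:155605108-155605407), IHH had 37 (chr2:219925594-219925893) and DHH had 12 (chr12:49488535-49488834), against a median of 14 over 35116 RefSeq promoters with a 5th to 95th percentile range of 1 to 42. IHH thus lay near the upper end, while SHH and DHH lay under the median.
SHH promoter: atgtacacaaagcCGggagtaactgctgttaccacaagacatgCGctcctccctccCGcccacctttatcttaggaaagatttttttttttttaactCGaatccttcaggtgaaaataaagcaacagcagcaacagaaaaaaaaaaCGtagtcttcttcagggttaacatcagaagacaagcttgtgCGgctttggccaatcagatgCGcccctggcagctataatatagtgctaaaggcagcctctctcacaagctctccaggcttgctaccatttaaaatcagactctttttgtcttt
IHH promoter: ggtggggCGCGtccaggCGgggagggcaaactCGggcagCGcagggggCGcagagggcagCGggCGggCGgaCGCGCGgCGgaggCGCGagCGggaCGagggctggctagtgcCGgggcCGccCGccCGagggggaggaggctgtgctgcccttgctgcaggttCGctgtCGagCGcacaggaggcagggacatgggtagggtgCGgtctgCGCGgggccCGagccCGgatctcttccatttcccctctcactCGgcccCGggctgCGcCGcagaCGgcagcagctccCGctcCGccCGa
DHH promoter: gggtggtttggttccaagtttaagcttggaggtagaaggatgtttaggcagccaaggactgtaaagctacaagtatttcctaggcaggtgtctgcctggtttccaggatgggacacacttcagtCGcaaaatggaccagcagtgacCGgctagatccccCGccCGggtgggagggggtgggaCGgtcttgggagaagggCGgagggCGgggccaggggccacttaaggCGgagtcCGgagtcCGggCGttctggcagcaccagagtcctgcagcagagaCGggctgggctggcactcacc

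The main PHF19 regions of the ligands were searched for their most CG-dense stretch, which as the highest of many windows is not comparable with a single promoter. The 300 bases with the most CG and no untranslated sequence in the main PHF19 region of SHH lay in intron 1, 2.41 to 2.71 kb from the start (chr7:155602452-155602751), with 44 CG. This stretch fell inside the SUZ12 peak of replicate 2. In DHH it lay wholly in coding sequence of exon 3, 4.58 to 4.88 kb from the start (chr12:49483709-49484008), with 47 CG. In IHH it lay 0.52 to 0.82 kb from the start, with 33 CG. The SHH and DHH stretches are read from hg19 on the minus strand, with each CG in capitals.
SHH intron 1: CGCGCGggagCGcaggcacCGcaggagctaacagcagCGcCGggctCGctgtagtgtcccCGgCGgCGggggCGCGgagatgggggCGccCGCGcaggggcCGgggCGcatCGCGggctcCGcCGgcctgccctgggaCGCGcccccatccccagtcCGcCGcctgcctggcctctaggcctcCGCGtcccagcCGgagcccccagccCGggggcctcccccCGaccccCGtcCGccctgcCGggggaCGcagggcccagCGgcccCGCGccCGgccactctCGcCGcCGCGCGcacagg
DHH exon 3: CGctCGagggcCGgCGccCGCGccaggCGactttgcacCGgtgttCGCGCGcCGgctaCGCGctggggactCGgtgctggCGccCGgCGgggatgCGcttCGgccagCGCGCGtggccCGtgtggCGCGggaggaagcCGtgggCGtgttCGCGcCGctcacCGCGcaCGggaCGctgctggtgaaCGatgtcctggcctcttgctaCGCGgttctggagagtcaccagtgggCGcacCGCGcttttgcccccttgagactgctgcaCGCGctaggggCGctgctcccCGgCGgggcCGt

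IHH, which governs cartilage growth, lies on chromosome 2 on the minus strand (chr2:219919146-219925643, hg19). Its PHF19 peak lay inside the gene in both replicates, from 0.17 to 2.25 kb (54 tags) and from 0.02 to 2.6 kb (score 654), and replicate 2 had a further peak upstream from -0.98 to -0.05 kb (score 74.9). EZH2 spanned the start site, from -1.12 to 2.72 kb (score 249) and from -1.33 to 2.81 kb (score 939). SUZ12 had a peak in replicate 2 from -0.63 to 1.06 kb (score 85.9). H3K27me3 ran from -2.42 to 3.88 kb and from -1.75 to 3.38 kb in shCTR cells, and from -3.04 to 4.79 kb and -3.02 to 4.83 kb in shPHF19L#4 cells. Every mark thus overlapped the first part of IHH, with H3K27me3 reaching farther on both sides than PHF19 or EZH2.

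DHH, the ligand of testis and peripheral nerve sheath, lies on chromosome 12 on the minus strand (chr12:49480439-49488584, hg19). It differed from SHH and IHH in that the PHF19 peak shared by both replicates lay toward the 3′ end of the gene, from 3.95 to 5.21 kb (59 tags) and from 2.56 to 6.38 kb (score 758), over exons 2 and 3. A PHF19 peak over the start site was called in replicate 2 alone, from -0.21 to 1.3 kb (score 211). EZH2 spanned the whole stretch in replicate 1, from -0.25 to 6.36 kb (score 68.7), and fell into 2 peaks in replicate 2, over the start (score 163) and over the 3′ part (score 164). H3K27me3 and MTF2 covered nearly the whole gene. H3K27me3 covered 82.8% and 70.2% of the interval in the shCTR replicates, and MTF2 covered 73.9% and 75.9%. In 1 of the 2 MTF2 lists of shPHF19L#4 cells a further peak from -3.69 to -1.92 kb reached the neighbouring gene LMBR1L.

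**Figure D2:**
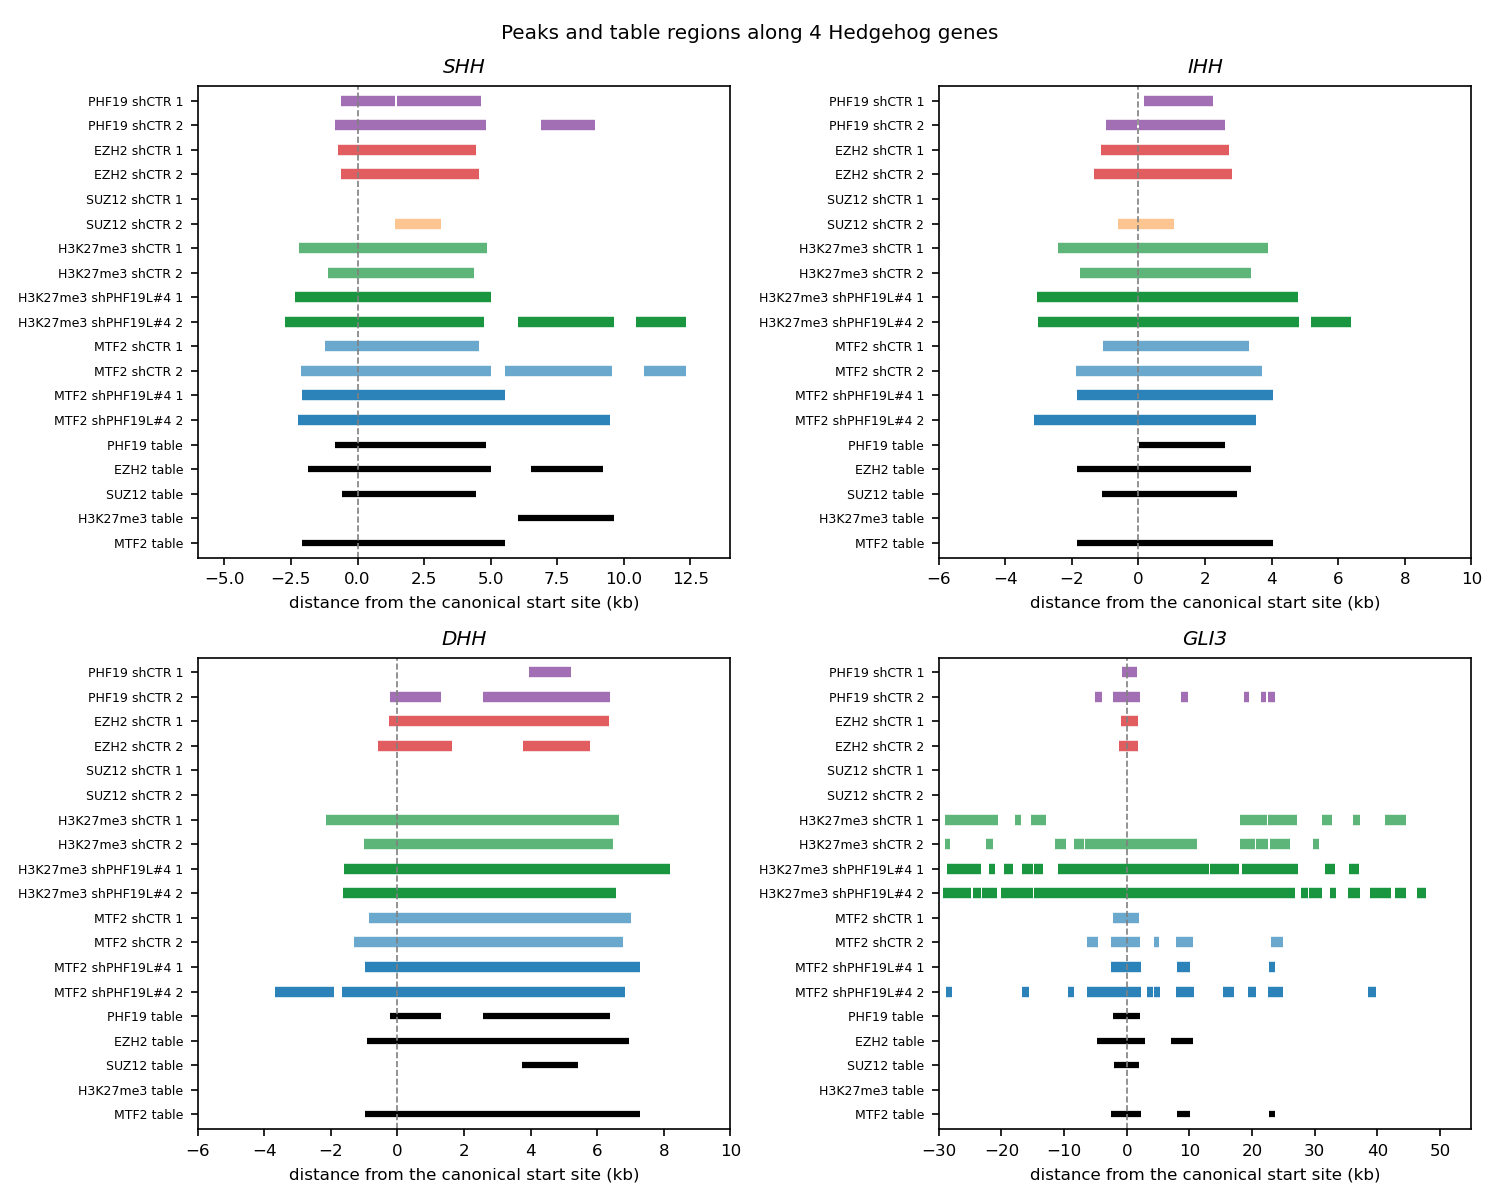
Peaks (coloured, by antibody, cells and replicate, paler for shCTR) and regions of the authors' concentration tables (black) along SHH, IHH, DHH and the part of GLI3 around its canonical start, by distance from the canonical start site (kb, dashed line at 0; gene direction to the right). PHF19 and EZH2 lie together over the first 5 kb of SHH and at the GLI3 start site, while in DHH the PHF19 peak shared by both replicates lies at 2.56 to 6.38 kb.

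The receptor-level genes had peaks in replicate 2 lists alone. PTCH1 (chr9:98205262-98279339, hg19, minus strand), the ligand receptor, had no EZH2 or SUZ12 peak and no H3K27me3 peak in shCTR cells. Its PHF19 peak of replicate 2 lay at an upstream start site, from -7.69 to -6.38 kb of the canonical start (score 71.9). In shPHF19L#4 replicate 2 an H3K27me3 peak covered the same place, from -8.42 to -5.41 kb (score 705), and so did MTF2 peaks of replicate 2 in shCTR cells (score 536) and in shPHF19L#4 cells (score 1000). The canonical PTCH1 start had an MTF2 peak of replicate 2 just downstream, from 0 to 3.7 kb in shCTR cells (score 375) and from 0.12 to 3.93 kb in shPHF19L#4 cells (score 226). Replicate 1 had none of these peaks, so the PTCH1 values rest on a single replicate.

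A pair of PTCH1 promoters is printed, the upstream one because it lay in the EZH2 and H3K27me3 table regions given later, and the canonical one for its GLI motif. The upstream promoter (chr9:98279204-98279503) had 27 CG, in capitals. The canonical promoter (chr9:98271499-98271798) holds TGGGTGGTC, in capitals, which is the GLI consensus GACCACCCA read on the other strand. Of the 9 genes, 7 had a RefSeq promoter, GLI1 and GLI3 being the others, and the consensus was found on either strand in 1 of their 12 promoters and in 0.236% of all 35116 promoters. Such a match is a description of letters and not of binding.
PTCH1 upstream promoter: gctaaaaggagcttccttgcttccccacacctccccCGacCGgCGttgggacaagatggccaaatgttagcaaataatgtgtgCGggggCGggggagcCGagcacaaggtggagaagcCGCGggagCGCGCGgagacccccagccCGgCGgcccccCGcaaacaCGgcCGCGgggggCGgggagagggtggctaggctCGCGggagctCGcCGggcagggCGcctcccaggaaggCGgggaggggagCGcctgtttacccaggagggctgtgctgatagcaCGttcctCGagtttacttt
PTCH1 canonical promoter: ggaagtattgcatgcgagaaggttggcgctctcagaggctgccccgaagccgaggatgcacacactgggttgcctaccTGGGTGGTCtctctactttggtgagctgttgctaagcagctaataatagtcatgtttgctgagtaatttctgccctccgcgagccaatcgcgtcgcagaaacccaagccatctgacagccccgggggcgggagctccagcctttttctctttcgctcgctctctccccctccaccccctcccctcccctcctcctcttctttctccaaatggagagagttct

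SMO (chr7:128828474-128853386, hg19, plus strand), the membrane protein that passes the signal on, had an MTF2 peak over its start in replicate 2, from -1.04 to 1.41 kb in shCTR cells (score 285) and from -1.24 to 1.55 kb in shPHF19L#4 cells (score 643). H3K27me3 flanked the start in shPHF19L#4 replicate 2, from -1.16 to -0.02 kb (score 116) and from 0.34 to 1.71 kb (score 154). HHIP (chr4:145567308-145666423, hg19, plus strand), the ligand trap, had a weak H3K27me3 peak in the same list from 0.02 to 1.19 kb (score 79.9). Its MTF2 peak near the start scored 58.9 in shCTR cells and 135 in shPHF19L#4 cells, in replicate 2. SMO and HHIP had no PHF19, EZH2 or SUZ12 peak in any list. Neither gene appeared in any of the 5 tables.

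Among the GLI factors, GLI3, known mainly as a repressor of Hedgehog targets, carried every mark but SUZ12 peaks. GLI1 carried H3K27me3 in both replicates and PHF19 and MTF2 in replicate 2 alone. GLI2 carried only PHF19 and MTF2, in replicate 2 alone. GLI3 (chr7:42000547-42303699, hg19, minus strand) has its canonical start 26.9 kb inside the gene record, and PHF19 and EZH2 peaks of both replicates stood there. PHF19 ran from -0.81 to 1.61 kb (73 tags) and from -2.18 to 2.08 kb (score 671), and EZH2 from -0.89 to 1.87 kb (score 93.7) and from -1.25 to 1.78 kb (score 329). A second PHF19 site in intron 2 was also in both replicates, from 84.7 to 85.8 kb (27 tags) and from 84.5 to 86.5 kb (score 193). EZH2 had a peak at that site in replicate 1 alone, from 84.5 to 86.4 kb (score 109). H3K27me3 differed from these focal peaks in breadth. It covered 59.0% and 27.7% of the 305.7 kb interval in the shCTR replicates, in 50 and 38 peaks, and 65.7% and 79.2% in the shPHF19L#4 replicates, in 46 and 43 peaks. The H3K27me3 list of shCTR replicate 1 left the start site free, with no peak from -12.8 to 18.1 kb, where the other 3 lists had one.

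GLI1 (chr12:57853568-57866051, hg19, plus strand), an activator, had H3K27me3 in all 4 lists but at changing places. In shCTR replicate 1 a single peak ran from 3.5 to 17.2 kb (score 55.8), past the gene end into ARHGAP9 and MARS1. In shCTR replicate 2 there were 4 small peaks between 0.64 and 10.1 kb (scores 71.8 to 101). In shPHF19L#4 replicate 1 the peak lay from 0.38 to 2.24 kb (score 51.6), and in replicate 2 the peaks lay from 0.1 to 2.55 kb (score 564) and from 3.01 to 18.1 kb (score 2229). The scores of the replicate 1 H3K27me3 peaks stand close to the lowest score listed, 50. PHF19 peaks lay in GLI1 in replicate 2 alone, from 0.56 to 2.58 kb (score 146) and from 7.58 to 8.65 kb (score 84.9). MTF2 peaks of replicate 2 in GLI1 scored up to 244 in shCTR cells and 509 in shPHF19L#4 cells. GLI2 (chr2:121493199-121750229, hg19, plus strand), the main activator, had a PHF19 peak in replicate 2 from 1.13 to 1.86 kb (score 52.7) and MTF2 peaks in both replicate 2 lists, the strongest with a score of 181. GLI2 had no EZH2, SUZ12 or H3K27me3 peak.

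The concentration tables gave the level of each listed region as the authors' mean over a group, without a value for each replicate. Tables were normalized separately, by a scaling that is not stated for them (depth or the fly spike-in), so levels are compared within a table only. PHF19 was tabulated for shCTR cells alone, and the others for both kinds of cells. A region in the PHF19 table was found for 4 of the 9 genes (4.64% of all genes), the 3 ligands and GLI3. The same 4 had a region in the SUZ12 table (2.44%) and the MTF2 table (9.02%), and the EZH2 table held them and PTCH1, 5 of 9 (9.54%). The H3K27me3 table held 3 of 9, SHH, PTCH1 and GLI1 (3.53%). Each factor table thus held the ligands and GLI3, for SUZ12 without a shared peak in any of them, whereas the H3K27me3 table held 1 gene of each role. The 4 tables with both kinds of cells keep only regions that the authors called as differing between them, so a listed gene has a difference by the way the table was made, and its sign is read against the whole table.

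PHF19 concentration in shCTR cells was 8.51 on the log2 scale at SHH, 7.45 at DHH, 7.33 at GLI3 and 6.62 at IHH, taking for each gene the listed region with the highest shCTR value. The SHH region was above 94.4% of the 1245 listed regions, DHH above 80.5%, GLI3 above 77.6% and IHH above 56.2%, with a table median of 6.42. By width the same regions ranked above 95.1% (SHH), 83.8% (DHH), 87.6% (GLI3) and 58.6% (IHH), and a link of level to width was not tested. With no spread between replicates given, it cannot be said which neighbours in the order of levels differ. A second region was listed for DHH over the start site (5.96) and for GLI3 in intron 2 (5.83). The SHH region spanned 5.65 kb, with 14.8% upstream of the gene, 5.3% coding sequence, 6% untranslated and 73.9% intron. The IHH region spanned 2.58 kb from 0.02 kb onward, with no base upstream. EZH2 and MTF2 table regions covered 100% of the main PHF19 region of each of the 4 genes. SUZ12 covered 89.1% in SHH, 100% in IHH, 43.9% in DHH and 92.1% in GLI3, and H3K27me3 table regions covered 0%.

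EZH2 concentration was listed for 5 genes, each higher in shPHF19L#4 than in shCTR cells, as nearly all listed regions were. SHH went from 8.24 to 9.41, a log2 difference of 1.17. IHH went from 8.00 to 9.16 (1.16), DHH from 8.16 to 9.46 (1.30) and GLI3 from 7.78 to 9.13 (1.35). The ligand and GLI3 levels in shCTR cells were above 91% to 95.6% of the 2408 listed regions. PTCH1 stood apart in level, from 4.99 to 6.56 (1.57), above only 10.6% of the regions in shCTR cells. It also stood apart in width, as its region was wider than 11.2% of the regions. The main ligand and GLI3 regions were wider than 86% to 95.6%, and a link of level to width was not tested. The PTCH1 region lay over the upstream start, from -7.99 to -6.09 kb, with 2 annotated start sites inside. These differences sit among those of the whole table, whose median was 1.16 (5th to 95th percentile 0.65 to 1.70) and in which 2407 of 2408 regions were higher in shPHF19L#4 cells. Further EZH2 regions lay downstream in SHH, 6.52 to 9.22 kb from the start (5.60 to 7.06, difference 1.46), and at 3 places inside GLI3, with differences of 0.99, 0.54 and 0.70.

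SUZ12 concentration followed the same order of genes in shCTR cells only in part. SHH went from 7.17 to 7.95 (0.78), IHH from 6.55 to 7.60 (1.05), GLI3 from 6.45 to 7.55 (1.10) and DHH from 5.88 to 6.71 (0.83). The table median difference was 0.96 (0.67 to 1.41), and 508 of 508 regions were higher in shPHF19L#4 cells. The DHH region was short, 1.68 kb, and lay at 3.75 to 5.43 kb over exon 3, while the others spanned their start sites. SHH and DHH thus lay under the median difference and IHH and GLI3 above it, all within the central range of the table.

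MTF2 concentration at the ligands and GLI3 stood high in its own table. SHH went from 9.97 to 10.85 (0.88), DHH from 9.89 to 10.70 (0.81), IHH from 9.64 to 10.48 (0.84) and GLI3 from 9.06 to 10.20 (1.14). In shCTR cells these were above 96.9%, 96.5%, 94.7% and 88.1% of the 2546 listed regions. The same regions were wider than 96%, 96.8%, 91.6% and 84% of them, and a link of level to width was not tested. The median difference of the table was 0.87 (0.52 to 1.29), with 2539 of 2546 regions higher in shPHF19L#4 cells, so the ligands sat at the middle and GLI3 above 87.2% of regions. The other 4 MTF2 regions of GLI3, all intronic, had differences of 0.63, 0.61, 0.81 and 0.92, each smaller than that at the canonical start site. Those with 0.63 and 0.81 held 3 and 1 further annotated start sites.

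H3K27me3 concentration was listed for a region of SHH away from its start sites and for regions holding start sites of PTCH1 and GLI1. The SHH region lay inside the gene, 6.04 to 9.62 kb from the start over exons 2 and 3, and went from 6.75 to 7.67 (0.92), a difference above only 1.05% of the 1049 regions. PTCH1 went from 6.25 to 7.36 (1.11) at its upstream start, and GLI1 from 6.11 to 7.26 (1.15) at 0.1 to 2.55 kb. The table median was 1.13 (0.95 to 1.71), and 1048 of 1049 regions were higher in shPHF19L#4 cells. No shCTR H3K27me3 list had a peak in the SHH or the PTCH1 region, and neither did the list of shPHF19L#4 replicate 1. Both regions were peaks in shPHF19L#4 replicate 2 alone. Because the table keeps regions past a threshold, the missing start-site domains of SHH, IHH, DHH and GLI3 have no concentration here and cannot be read as unchanged.

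**Figure D3:**
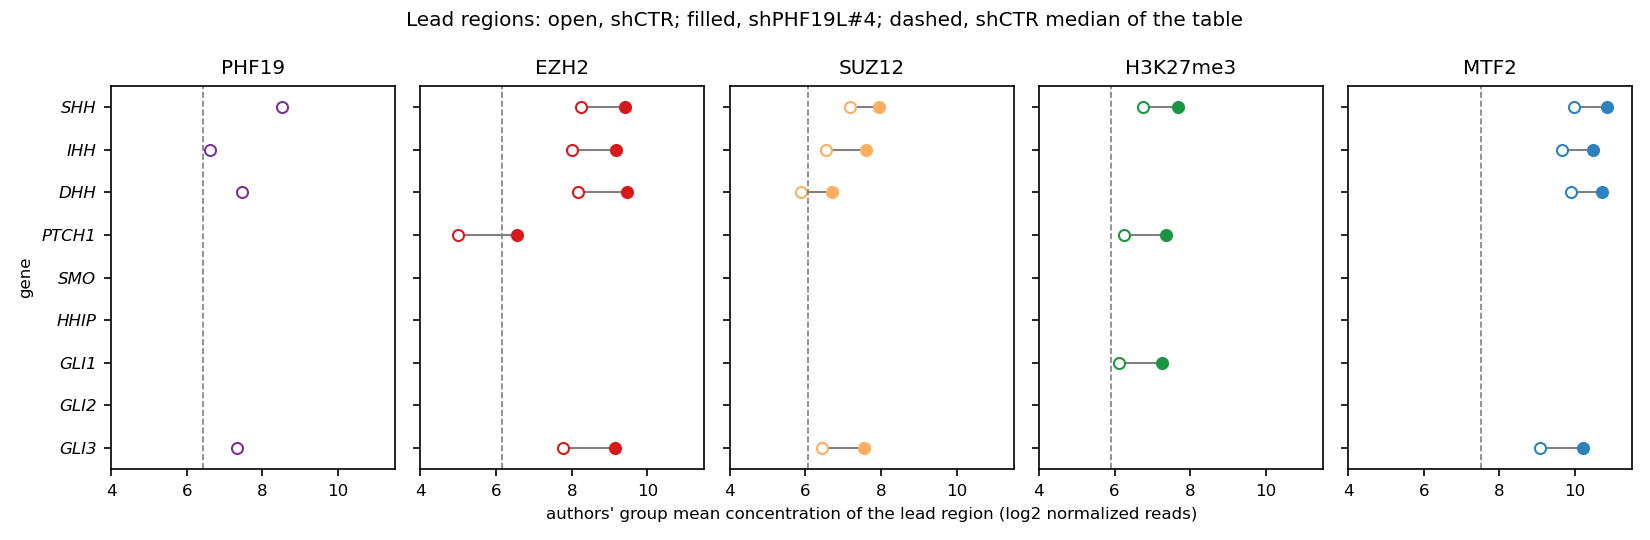
Authors' mean log2 concentration of the listed region with the highest shCTR value for each Hedgehog gene, in shCTR (open) and shPHF19L#4 cells (filled), by antibody; the dashed line is the shCTR median of all listed regions and PHF19 has shCTR values alone. Ligands and GLI3 lie right of the median for EZH2 and MTF2, and PTCH1 lies left of it for EZH2 (4.99 in shCTR cells).

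**Figure D4:**
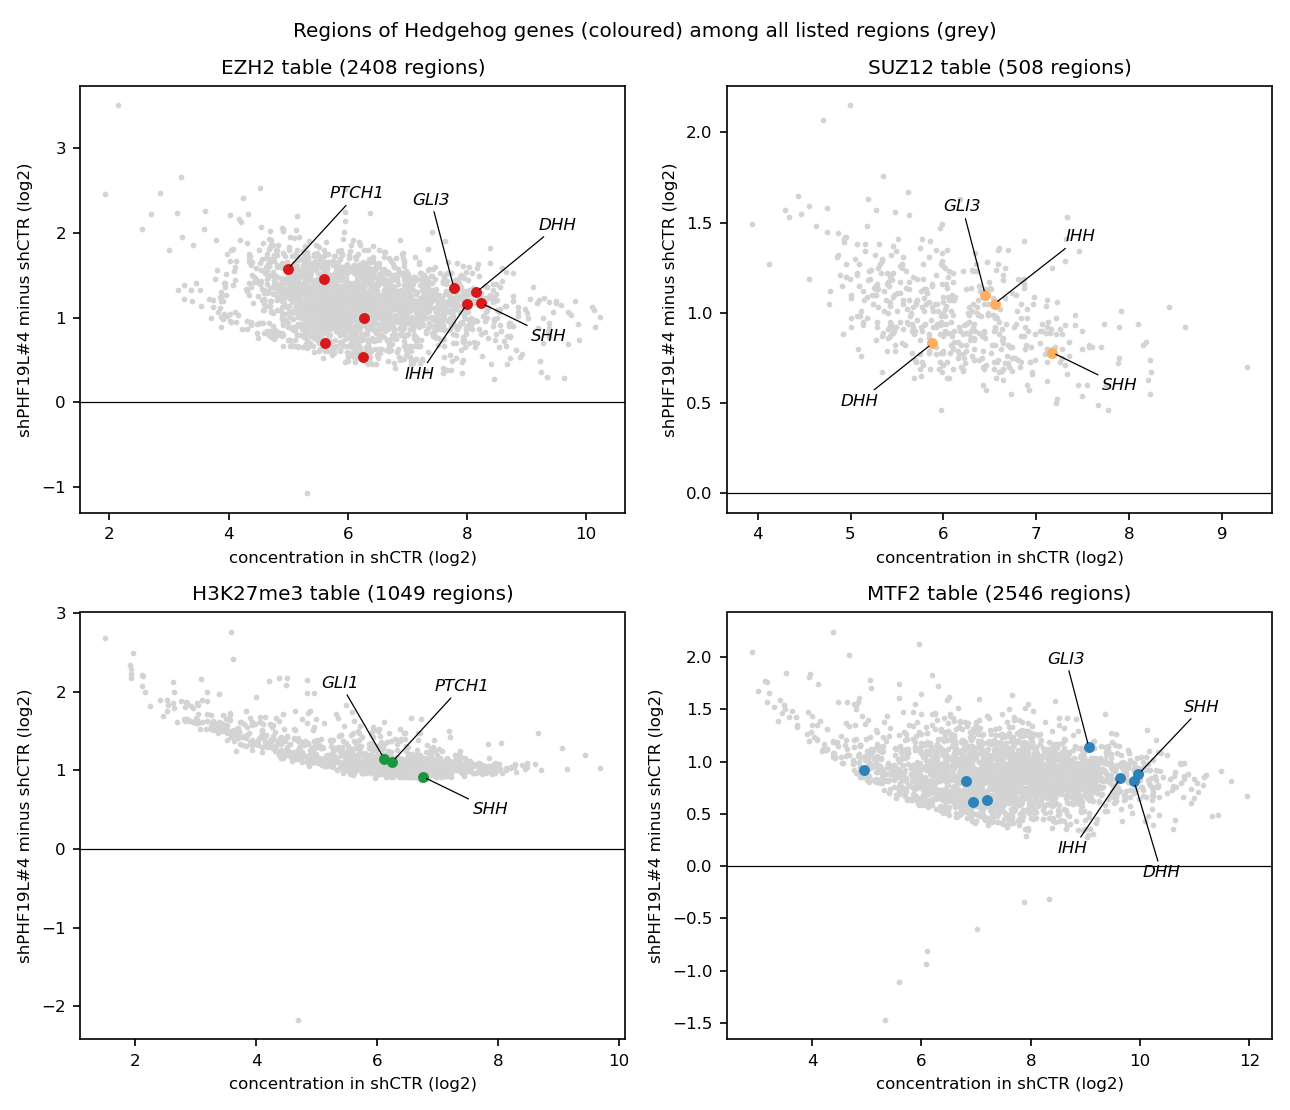
Difference in log2 concentration, shPHF19L#4 minus shCTR, against the shCTR concentration for every listed region (grey) and for the regions of Hedgehog genes (coloured, the region with the highest shCTR value labelled), in 4 tables. The labelled points of the ligands and GLI3 lie at the right side in the EZH2 and MTF2 tables, while their further regions lie at the left or in the middle.

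For H3K27me3 and MTF2 the peak lists also gave a comparison for each replicate, the share of the interval under peaks in shPHF19L#4 minus that in shCTR cells. Samples were matched by replicate number alone, and the other matching would leave each mean as it is. It would change the SDs, except for H3K27me3 in PTCH1, SMO, HHIP and GLI2. Opposite signs would then also appear for H3K27me3 in DHH, and for MTF2 in GLI3 and in the genes with peaks in replicate 2 alone. With 2 replicates in each group an exact permutation test cannot give a two-sided p under 0.333, so none was run, and lists of different length bear directly on these shares. For H3K27me3 the difference was 2.24 and 48.3 percentage points in SHH (mean 25.3, SD 32.6, n = 2), 11.1 and 38.0 in IHH (24.5, SD 19.1), and 8.94 and 6.76 in DHH (7.85, SD 1.54). GLI3 gave 6.74 and 51.4 points (mean 29.1, SD 31.6), and GLI1 gave -47.6 and 50.5 points (mean 1.47, SD 69.3). Matched this way, the replicates disagreed in sign for GLI1. PTCH1, SMO and HHIP had 0 in replicate 1 and 3.93, 9.17 and 1.15 points in replicate 2, and GLI2 had 0 in both. Over all genes with a peak the median difference was -0.29 points in replicate 1 and 10.3 in replicate 2, and 42.4% and 98.5% of genes had a higher share in shPHF19L#4 cells.

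For MTF2 the difference was 12.2 and -6.58 points in SHH (mean 2.83, SD 13.3, n = 2), 16.5 and 5.17 in IHH (10.8, SD 7.98), 3.99 and 9.25 in DHH (6.62, SD 3.72) and 1.95 and 15.4 in GLI3 (8.69, SD 9.53). Matched by replicate number, the sign differed between replicates in SHH. GLI1 had no MTF2 peak in replicate 1 and went from 19.8% to 65.3% in replicate 2. The receptor-level genes had 0 in both cells of replicate 1, and in replicate 2 differences of -0.58 (PTCH1), 4.72 (SMO) and -0.25 (HHIP) points. Over all genes with a peak the median was 2.05 points in replicate 1 and 0.45 in replicate 2, and 85.8% and 59.8% of genes had a higher share in shPHF19L#4 cells.

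**Figure D5:**
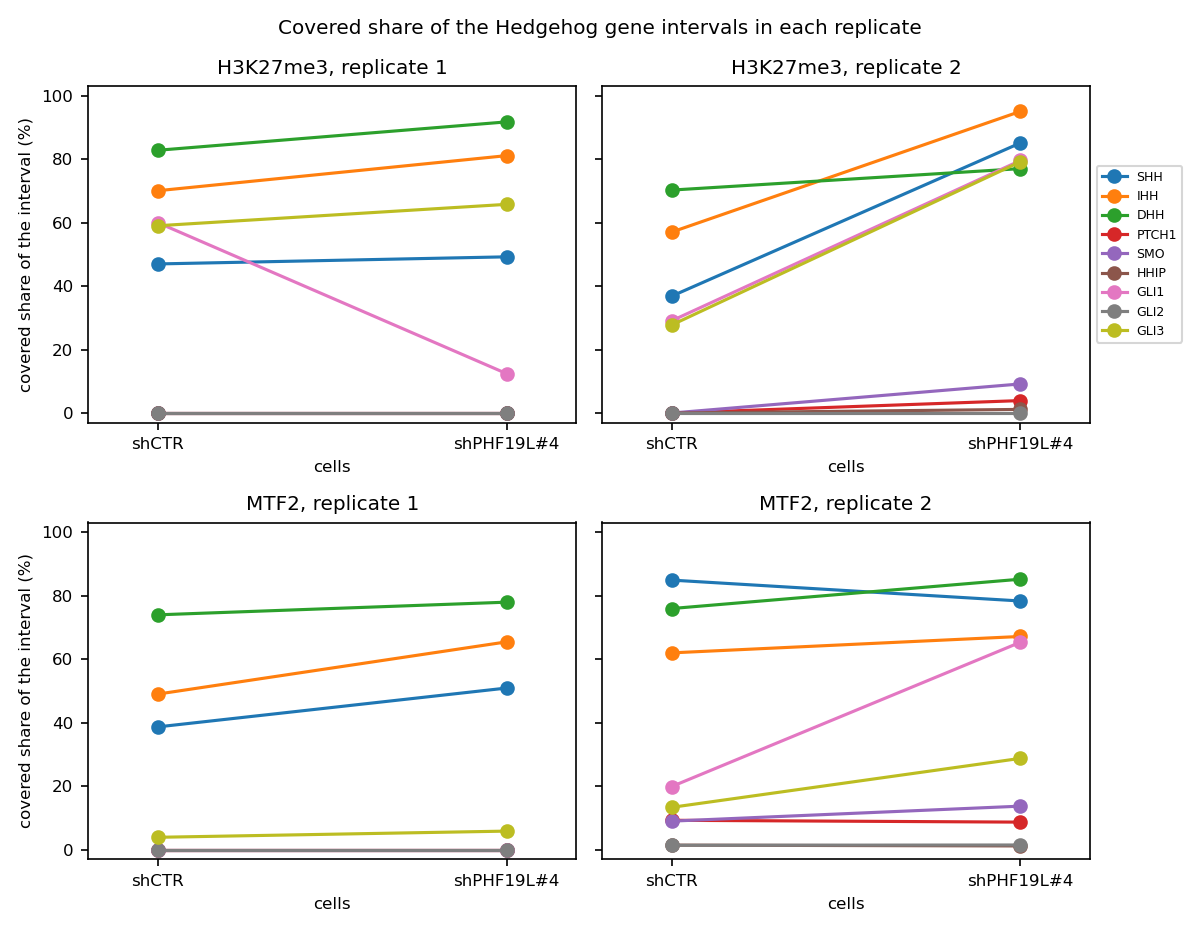
Share of the gene interval covered by H3K27me3 (top) and MTF2 peaks (bottom) in shCTR and shPHF19L#4 cells for the 9 Hedgehog genes (coloured lines), replicate 1 at left and replicate 2 at right. GLI1 goes from 60.0% to 12.4% for H3K27me3 in replicate 1 and from 29.0% to 79.5% in replicate 2, and SHH goes down for MTF2 in replicate 2 (84.9% to 78.3%).

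Of 21 further genes for ligand release, co-receptors and signal transduction, 1 had a PHF19 region and an EZH2 region in both replicates (3.35% and 2.22% of all genes), LRP2, an endocytic receptor that binds SHH. LRP2 also had an MTF2 region there, as did GAS1, a co-receptor. H3K27me3 in both shCTR replicates covered 3 of the 21 (SCUBE2, GAS1 and LRP2, against 13.2% of all genes), and in both shPHF19L#4 replicates 4 (18.7%). The tables held 1 of 21 for PHF19 (4.64% of all genes), 5 for EZH2 (9.54%), 2 for SUZ12 (2.44%), 3 for H3K27me3 (3.53%) and 4 for MTF2 (9.02%). At LRP2 the PHF19 concentration was 7.72 over the start site, and EZH2 went from 7.71 to 8.79, SUZ12 from 6.56 to 7.54 and MTF2 from 9.52 to 10.28. LRP2 was thus listed for the same 4 factors as the ligands.

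SCUBE2, a secreted protein that releases ligand from cells, had a region 45.2 to 48.4 kb inside the gene. EZH2 went there from 6.27 to 7.91 (1.64), SUZ12 from 4.86 to 6.30 (1.44), MTF2 from 7.69 to 9.12 (1.43) and H3K27me3 from 7.34 to 8.50 (1.16). GAS1 went from 7.64 to 9.04 for EZH2 and from 8.52 to 9.94 for MTF2, over its start site. KIF7, a kinesin-like regulator of GLI factors in the cilium, went from 5.41 to 7.01 for EZH2 inside the gene and from 6.14 to 7.15 for H3K27me3 upstream. These genes carried table regions without one for PHF19, unlike LRP2. In the peak lists SCUBE2, GAS1 and KIF7 each had a PHF19 and an EZH2 peak in replicate 2 alone.

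Likeness was measured over the 7 concentrations of PHF19, EZH2, SUZ12 and MTF2 in the leading region of each gene, as the Euclidean distance on the log2 scale, among 379 other genes with all 7. SHH was nearest to MKX (distance 0.53), with 8.45 for PHF19, 7.95 and 9.24 for EZH2, 6.90 and 7.92 for SUZ12, and 9.71 and 10.69 for MTF2 in shCTR and shPHF19L#4 cells. ESRP1 (0.58) and LMX1B (0.63) came next. IHH was nearest to HCN4 (0.32), with 6.80 for PHF19, 7.90 and 9.22 for EZH2, 6.34 and 7.67 for SUZ12, and 9.57 and 10.54 for MTF2, followed by GDF7 (0.46). DHH was nearest to NKX2-2 (0.88), with 7.14 for PHF19, 8.51 and 9.72 for EZH2, 6.27 and 7.15 for SUZ12, and 10.05 and 11.05 for MTF2, followed by ALX4 (0.91) and MSX1 (0.94). GLI3 was nearest to CRHR1 and the read-through gene LINC02210-CRHR1, which share the same regions (0.31), with 7.22 for PHF19, 7.71 and 8.93 for EZH2, 6.39 and 7.51 for SUZ12, and 9.20 and 10.09 for MTF2, then to ARHGEF1 (0.36). The distances among the 4 Hedgehog genes ran from 0.99 (IHH and GLI3) to 2.11 (SHH and IHH), and the median distance to the 379 genes was 2.59 for SHH, 1.91 for IHH, 2.07 for DHH and 1.68 for GLI3.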

How the data were processed

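Peak positions were read from 14 lists on hg19, called by the authors on each replicate with MACS after alignment with Bowtie. The deposited values were a MACS score for 11 lists and tag counts of each peak for PHF19 replicate 1. MTF2 replicate 1 lists gave positions alone. The 5 tables hold log2 concentrations, which the authors made with DiffBind as group means over 2 replicates. Fold, p and FDR columns of the authors' comparisons and 6 further concentration columns were not used. A pair of header lines in 4 tables names the last group differently (INP and KD), and the second was followed. Regions were joined to GENCODE release 44 genes lifted to hg19 by an overlap of 1 bp, with Python 3.11.15, numpy 2.4.6, pandas 2.3.3, pysam 0.24.0, samtools 1.23.1 and matplotlib 3.10.9, by code tested on simulated data. A region was shared when overlapping peaks of both replicates merged. The members and lists were chosen with earlier results of these data known. Named genes were all 9 members, other pathway genes with a PHF19 table region or regions in 2 or more other tables, the 3 genes most like each member, and neighbours under counted regions. Some genes that this rule names are not reported here. Read depth was not given in the sources used here. No test was run. RNA-seq was not analysed here.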

Additional observations from a re-analysis of the deposited data

How the results depend on the processing

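The counts of Hedgehog genes were recomputed with start sites only (2.5 kb or 1 kb on each side), with at least 50% of a region inside the interval, with a MACS score of at least 100, with peaks of either replicate and with each replicate alone. Of 64 such counts 53 stayed within 1.5 times the reported one, all counts from the tables included. Counts inside that limit could still lose a gene. With start sites only, shared PHF19 regions fell from 4 to 3 genes, without DHH, whose shared peak lies at 2.56 to 6.38 kb. The SUZ12 table then fell from 4 to 3 and the H3K27me3 table from 3 to 2. A score of at least 100 took H3K27me3 from 5 to 4 genes in both kinds of cells. The score minimum could not act on PHF19 replicate 1 and MTF2 replicate 1, which have no MACS score, so the unchanged PHF19 and MTF2 counts say little about it. A score of at least 100 left 2 genes for EZH2, SHH and IHH. Peaks of either replicate gave 7 genes for PHF19, 2 for SUZ12, 8 for H3K27me3 in shPHF19L#4 cells, and 9 for MTF2 in shCTR and 9 in shPHF19L#4 cells. Apart from single replicates, no share of all genes was computed for these alternatives. Replicate 2 alone reached 23.4% of all genes for PHF19 and 0.972% for SUZ12. It reached 29% for H3K27me3 in shPHF19L#4 cells, and for MTF2 49.5% in shCTR and 51% in shPHF19L#4 cells. With a replicate left out the counts ran from 4 to 7 for PHF19, 0 to 2 for SUZ12, 5 to 8 for H3K27me3 in shPHF19L#4 cells and 4 to 9 for MTF2 in either cells, the higher value coming from replicate 2. The cause was not tested.

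The sign of the log2 differences could not turn, since every listed region of these genes is higher in shPHF19L#4 cells, and most genes have a single region in a table. The median MTF2 difference over the listed genes was 0.82, against 0.86, when the median of all regions of a gene was taken, and for GLI3 the EZH2 difference was then 0.84, against 1.35, and the MTF2 difference 0.81, against 1.14. For SHH the EZH2 difference was 1.32, against 1.17. Shares under peaks turned sign or moved in some cases. For GLI1 and H3K27me3 the replicates gave -47.56 to 50.5 points, and for SHH and MTF2 -6.58 to 12.24 points. Around the gene start with 10 kb on each side, the MTF2 difference was 0.88 for PTCH1, 0.75 for HHIP and -0.23 points for GLI3, whose canonical start lies outside that window. In the same window the MTF2 difference of GLI2 was 4.80 points, against 0.04, and the H3K27me3 difference was 4.27 for DHH, against 7.85, 7.53 for PTCH1, against 1.97, and 2.92 for HHIP, against 0.57. Further values moved there by less than the SD between replicates, among them SHH (MTF2 8.69, against 2.83, and H3K27me3 14.73, against 25.26), IHH (MTF2 5.81, against 10.81) and SMO (MTF2 0.85, against 2.36). For concentrations no paired analysis was possible because they are group means. The main counts join both replicates, and the counts of single replicates were given without a test. Shares under peaks were compared within replicate numbers, without a test. Group means without spread and unknown read depth limit how finely genes can be ordered.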

Other observations

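For PHF19, MTF2 and H3K27me3 the table regions of the Hedgehog genes matched peaks of particular lists base for base, allowing 1 base at the start. Of the 9 EZH2 and 4 SUZ12 regions, 0 had the ends of a peak in the shCTR lists, the only lists for these antibodies. All 6 PHF19 regions had the ends of a PHF19 peak of replicate 2, all 8 MTF2 regions those of a peak of shPHF19L#4 replicate 1, and all 3 H3K27me3 regions those of a peak of shPHF19L#4 replicate 2. Over whole tables the shares were 70% for PHF19, 82.2% for MTF2 and 68.2% for H3K27me3. Of the 1049 H3K27me3 regions, 21.4% and 17.9% overlapped a peak of shCTR replicate 1 and 2, against 50.1% and 98.5% for the shPHF19L#4 replicates. The smallest absolute log2 difference listed was 0.88 for H3K27me3, 0.46 for SUZ12 and 0.28 for EZH2 and MTF2, so regions with smaller differences have no value in these tables.

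CG density of the listed regions varied widely within single genes. In GLI3 the PHF19 region at the start had 6.59 CG per 100 bases and that in intron 2 had 1.57, against a table median of 5.14. In SHH the H3K27me3 region over exons 2 and 3 had 9 CG per 100 bases, above 97.5% of the listed H3K27me3 regions, and the PTCH1 region at the upstream start had 6.80, above 89.6%. The EZH2 region of PTCH1 had 9.23, above 96.5% of the listed EZH2 regions.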
